A study of Mus musculus with 2 samples.

Results

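Platelet-derived growth factors and their receptors were followed across the cells of denervated mouse hind limb muscle. The set holds the 4 ligand genes Pdgfa, Pdgfb, Pdgfc and Pdgfd and the 2 receptor genes Pdgfra and Pdgfrb, which are 6 of the 32287 features of the count matrix and were chosen by name. The cells came from the tibialis anterior and gastrocnemius muscles of 2-month-old male S100GFPtg mice, labelled WT, 7 days after sciatic nerve crush, an injury that cuts the muscle off from its motor axons for a time. In these animals the S100B promoter drives green fluorescent protein as a reporter for Schwann cells, and GFP+ cells without propidium iodide staining were sorted into 1 droplet library, read at the 3′ ends of transcripts. WT here sets them apart from the S100GFPtg Sod1-/- mice that the series description also names, which are not analysed here. Every class described here came out of the GFP+ sort, so the numbers of cells per class reflect the sort and not the muscle. The study's methods speak of pooled animals and the series description of a single crushed mouse, so the number of animals is not certain. With 1 library there is no replicate, no uninjured muscle to compare with and no test, and intervals in brackets are exact 95% intervals that cover counting error only.

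PDGF ligands are secreted as dimers and act through receptor tyrosine kinases. PDGF-A and PDGF-C chains bind mainly the receptor encoded by Pdgfra, PDGF-B binds both receptors, and PDGF-D binds mainly the receptor encoded by Pdgfrb. PDGF-A and PDGF-B are cut by proprotein convertases inside the cell, whereas PDGF-C and PDGF-D leave the cell in a latent form with a CUB domain that proteases have to remove outside it. In skeletal muscle Pdgfra is the usual marker of fibro-adipogenic progenitors, and in blood vessels endothelial PDGF-B recruits pericytes, which carry the receptor encoded by Pdgfrb.

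The library held 36400 barcodes and 170648616 unique molecular identifiers (UMIs). Barcodes with at least 5000 UMIs, more than 200 genes and under 10% mitochondrial UMIs were used, which left 8701 barcodes with 5002 to 81075 UMIs and a median of 11624. They were sorted into classes by the summed UMIs of lists of marker genes, none of which is a PDGF gene, and 8169 of them fell into 14 reported classes. These were 5717 macrophages, 1296 fibroblasts, 366 tenocytes, 225 conventional dendritic cells of type 1, 209 satellite cells and myoblasts, 131 Cd209a dendritic cells, 80 Schwann cells, 43 vascular smooth muscle cells, 34 endothelial cells, 22 muscle fibre barcodes, 17 mature dendritic cells, 12 T and NK cells, 10 erythroid cells and 7 pericytes. Each class name stands for its gate, that is for cells resembling that type by these markers. Median depth by class ran from 6666 UMIs in endothelial cells to 17678 in conventional dendritic cells of type 1. A level is given in CPM, the UMIs of a gene per 1000000 UMIs of all cells of a class. Because a UMI counts a molecule once whatever its length, levels were not divided by gene length.

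The classes were not free of each other's markers. The 8 fibroblast markers summed to 6956 CPM in fibroblasts and 4325 CPM in tenocytes, compared with 652 CPM in satellite cells and myoblasts, 463 CPM in Schwann cells, 72.1 CPM in macrophages and 0 in endothelial cells. Markers of vascular smooth muscle summed to 29349 CPM in that class and to 7362 CPM in pericytes. In satellite cells and myoblasts they summed to 881 CPM, beside 1201 CPM of that class's own markers. Macrophage markers summed to 4201 CPM in macrophages, 1311 CPM in Cd209a and 934 CPM in type 1 dendritic cells. The own markers of these dendritic classes summed to 3911 and 1634 CPM. Gfp RNA, the reporter, was at 552 CPM (502 to 605) in Schwann cells, 466 CPM (461 to 471) in macrophages, 119 CPM (115 to 124) in fibroblasts and 9.72 CPM (2.00 to 28.4) in endothelial cells, the last from 3 UMIs. Muscle fibre barcodes held 1 Gfp UMI and erythroid barcodes 0. Of the 36400 barcode sequences, 372 (1.02%) also occurred in the GFP- library, and 84 of these were among the deep barcodes used. Leaving those out changed no direction in the comparisons that follow.

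Positions are those of the GENCODE M39 annotation of GRCm39, matched by Ensembl identifier. Pdgfra (ENSMUSG00000029231) is on chromosome 5 from 75311994 to 75358876 on the plus strand. The identifier of Pdgfrb is ENSMUSG00000024620. Pdgfa (ENSMUSG00000025856) is also on chromosome 5, from 138961758 to 138983435 on the minus strand, and Pdgfb (ENSMUSG00000000489) is on chromosome 15 from 79880009 to 79899181 on the minus strand. Pdgfc (ENSMUSG00000028019) spans 177806 bases of chromosome 3, from 80943668 to 81121473, and Pdgfd (ENSMUSG00000032006) spans 211026 bases of chromosome 9, from 6168240 to 6379265, both on the plus strand. All 6 are protein-coding genes.

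Promoters of 3 members are printed because their RNAs carry the stromal results, Pdgfra as the receptor gene of fibroblasts and Pdgfc and Pdgfd as the ligand genes that made up most of the ligand UMIs of fibroblasts. RefSeq promoter windows on GRCm38.p6, of 250 bases before and 50 bases from the annotated start on, were matched for 4 of the 6 members. They run 5′ to 3′ on the plus strand, from chr5:75152001-75152300 for Pdgfra, chr3:81036166-81036465 for Pdgfc and chr9:6168236-6168535 for Pdgfd, with every CG dinucleotide and the word TATAAA in capitals.
Pdgfra: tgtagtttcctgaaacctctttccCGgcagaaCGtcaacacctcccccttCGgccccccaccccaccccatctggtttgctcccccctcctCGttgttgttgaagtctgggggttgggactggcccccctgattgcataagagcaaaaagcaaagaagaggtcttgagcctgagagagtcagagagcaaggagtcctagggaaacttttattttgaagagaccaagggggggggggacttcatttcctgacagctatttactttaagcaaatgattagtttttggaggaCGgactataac
Pdgfc: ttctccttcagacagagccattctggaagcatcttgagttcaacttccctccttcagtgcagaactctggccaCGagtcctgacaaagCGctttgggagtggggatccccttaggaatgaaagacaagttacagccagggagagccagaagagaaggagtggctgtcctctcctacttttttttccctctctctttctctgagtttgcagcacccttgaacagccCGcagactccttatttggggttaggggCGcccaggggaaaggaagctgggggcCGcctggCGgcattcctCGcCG
Pdgfd: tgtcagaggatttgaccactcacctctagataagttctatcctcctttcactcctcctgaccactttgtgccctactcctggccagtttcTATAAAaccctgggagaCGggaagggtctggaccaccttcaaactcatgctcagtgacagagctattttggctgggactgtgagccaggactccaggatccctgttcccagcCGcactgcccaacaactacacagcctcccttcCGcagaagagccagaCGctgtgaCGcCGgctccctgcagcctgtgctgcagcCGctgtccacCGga
The windows hold 5, 8 and 8 CG dinucleotides in this order, near the median of 7 over all 32851 windows of the table, whereas the 2 windows of Pdgfa hold 24 and 37. The word TATAAA was searched on both strands and occurs once among the members' windows, in Pdgfd at -160 from the start, and in 13.6% of all windows. The GC box GGGCGG occurs in both Pdgfa windows, in none of the 3 printed ones, and in 35.7% of all windows. The AP-1 word TGANTCA occurs in none of the members' windows and in 7.81% of all windows. The expression data contain no measurement of these promoters, so the matches are descriptions only.

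Pdgfra RNA was found largely in fibroblasts. It stood at 479.6 CPM (470.2 to 489) in fibroblasts, from 9857 UMIs, and at 28.5 CPM (23.8 to 34) in tenocytes, the class with the next highest level. The ratio of fibroblasts to tenocytes was 16.8-fold (14.1 to 20.2), or 4.07 (3.82 to 4.34) on the log2 scale. Schwann cells held 5 UMIs, or 6.05 CPM (1.96 to 14.1), and macrophages 3.18 CPM (2.78 to 3.63), so that fibroblasts were 79.3-fold (34 to 244) and 151-fold (132 to 173) higher, respectively. The log2 ratio to macrophages was 7.23 (7.04 to 7.43), and 5.35 when barcodes from 2000 UMIs on were used. The log2 ratio to Schwann cells, 6.31 (5.09 to 7.93), was 4.71 when barcodes of several gates went to their best class. Satellite cells and myoblasts had 2.27 CPM (0.735 to 5.29), vascular smooth muscle cells 1 UMI and endothelial cells 1 UMI. Pericytes had 0 UMIs, and against a floor of 3 UMIs over the class, which is 50.9 CPM for so few cells, the fibroblast level was at least 9.43-fold higher. This log2 bound of 3.24 was 1.80 with barcodes from 10000 UMIs on and 5.08 when barcodes of several gates went to their best class. Conventional dendritic cells of type 1 were at 1.67 CPM and Cd209a dendritic cells at 0.599 CPM, while muscle fibre, mature dendritic, T and NK and erythroid barcodes held 0 UMIs. From Schwann cells downwards, the intervals of neighbours in the order overlapped. Fibroblasts supplied 96.4% (96 to 96.7) of all Pdgfra UMIs in the 14 classes.

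Within the fibroblast gate, Pdgfra was broadly detected. When each cell was thinned at random to 5000 UMIs, 84% (81.9 to 86) of fibroblasts kept a Pdgfra UMI, with a median of 2 UMIs per cell, 4 at the upper quartile and a highest value of 16. The same share was 1.12% (0.863 to 1.43) in macrophages, a myeloid class that should lack the gene, at median depths of 15552 and 11226 UMIs before thinning. Without thinning, 95.3% of fibroblasts and 1.84% of macrophages held one. In tenocytes 8.47% (5.83 to 11.8) of thinned cells held a Pdgfra UMI, which lies above the macrophage share, while the Schwann cell share of 1.25% (0.0316 to 6.77) had an interval that included the macrophage value. Barcodes passing both the fibroblast and tenocyte gates were kept, in the class whose gate they exceeded most. Macrophage barcodes that passed the fibroblast gate were left out, so the macrophage share is not a matched background for tenocytes. The part of fibroblast RNA in the tenocyte share was not tested. Tenocytes held the summed fibroblast markers at 62.2% and Pdgfra at 5.95% of the fibroblast level. Schwann cells carried Col1a1, a collagen gene of stromal cells, at 14.6% and the summed fibroblast markers at 6.66% of the fibroblast level, compared with 1.26% for Pdgfra. Pdgfrb stood at 10.8% and Pdgfd at 7.44% of the fibroblast level in Schwann cells, and Pdgfc at 0. These genes were set side by side after their values were seen, and the source of the Col1a1, Pdgfrb and Pdgfd RNA in Schwann cells was not tested.

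Pdgfrb, in contrast, was spread over the vessel wall and the connective tissue. It was highest in the 7 pericytes, at 628 CPM (442 to 865) from 37 UMIs, and each of the 7 cells held at least 1 UMI. Vascular smooth muscle cells followed with 132 CPM (101 to 171), tenocytes with 94 CPM (85.2 to 104) and fibroblasts with 56 CPM (52.8 to 59.3). Pericytes were 11.2-fold (7.85 to 15.5) above fibroblasts and 4.74-fold (3.05 to 7.28) above vascular smooth muscle cells. Vascular smooth muscle cells were 2.37-fold (1.78 to 3.08) above fibroblasts, and tenocytes 1.68-fold (1.5 to 1.88) above them. The step from vascular smooth muscle to tenocytes was smaller, at 1.41-fold (1.05 to 1.86), and the separate intervals of the 2 levels overlapped slightly. Endothelial cells held 0 Pdgfrb UMIs, where 3 UMIs would be 9.72 CPM. Schwann cells were at 6.05 CPM (1.96 to 14.1), satellite cells and myoblasts at 2.72 CPM (0.997 to 5.92) and macrophages at 1.18 CPM (0.944 to 1.47). Conventional dendritic cells of type 1 held 1 UMI, and muscle fibre, Cd209a dendritic, mature dendritic, T and NK and erythroid barcodes held none. The pericyte value rests on few cells. Of the 45 barcodes that passed the pericyte gate, 28 also passed a gate of another lineage and were left out, and 10 were nearer to vascular smooth muscle. The log2 ratio of pericytes to fibroblasts, 3.49 (2.97 to 3.96), was 2.75 when the former went to their best class, and the log2 ratio of pericytes to vascular smooth muscle cells, 2.24 (1.61 to 2.86), was then 1.65.

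**Figure D1:**
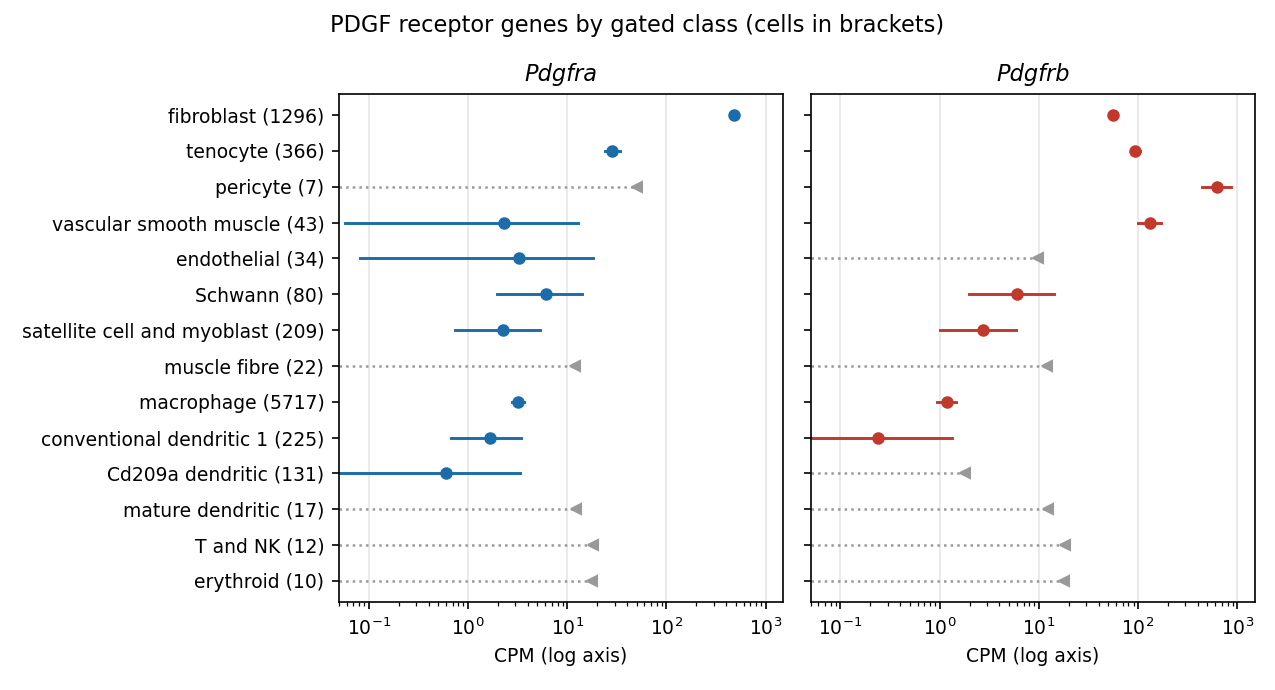
Levels of the receptor genes Pdgfra (left) and Pdgfrb (right) in the 14 gated classes, in CPM on a log axis, with exact Poisson 95% intervals as lines. For a class with 0 UMIs a grey arrowhead marks the level that 3 UMIs would give. Pdgfra peaks in fibroblasts at 479.6 CPM, and Pdgfrb in the 7 pericytes at 628 CPM and at 94 and 56 CPM in tenocytes and fibroblasts.

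The balance of the receptor RNAs differed between the stromal classes. Of the 11008 receptor UMIs of fibroblasts, 89.5% (89 to 90.1) were Pdgfra. In tenocytes, which make tendon matrix, the share was 23.3% (19.8 to 27.1) of 541 UMIs, in vascular smooth muscle cells 1.69% (0.0429 to 9.09) of 59 UMIs, and in pericytes 0 of 37 UMIs, which allows a share of up to 9.49% with its exact interval. The gap between tenocytes and fibroblasts had a contribution from either gene, since tenocytes had less Pdgfra and more Pdgfrb. Capture can differ between genes, so the shares compare classes and not absolute amounts of the receptors. Among single fibroblasts thinned to 5000 UMIs, a Pdgfrb UMI was found in 21.7% (19.3 to 24.2) of cells with a Pdgfra UMI and in 19.3% (14.2 to 25.4) of cells without one. The receptor RNAs were found together in 18.2% of thinned fibroblasts, and no preference for or against each other was detectable at this depth. Unthinned, where depth differs between cells, the shares were 47.1% (44.3 to 50.0) and 29.5% (18.5 to 42.6).

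Pdgfa, whose product signals through the receptor encoded by Pdgfra, was high in cells that themselves had little Pdgfra. Vascular smooth muscle cells had 306 CPM (256 to 363) and Schwann cells 276 CPM (241 to 314), and these 2 levels were not distinguishable, with a log2 ratio of 0.15 (-0.17 to 0.46). Pericytes had 169.6 CPM (81.3 to 312) from 10 UMIs, with an interval that included the Schwann cell level. Tenocytes had 167 CPM (155 to 179.7), and Schwann cells exceeded them 1.65-fold (1.42 to 1.92). Satellite cells and myoblasts, the muscle stem cells and their offspring, had 74.7 CPM (63.8 to 87.1), and Schwann cells exceeded those 3.69-fold (3.01 to 4.54). Fibroblasts were at only 7.54 CPM (6.4 to 8.83), which was 36.6-fold (29.7 to 45.1) below Schwann cells and 22.2-fold (18.6 to 26.5) below tenocytes. Macrophages were at 16.3 CPM (15.4 to 17.3), or 2.16-fold (1.83 to 2.58) above fibroblasts. Lower or less certain levels were 32.4 CPM in endothelial cells, 20.2 CPM in muscle fibre barcodes, 5.39 CPM in Cd209a dendritic cells and 3.1 CPM in conventional dendritic cells of type 1. In T and NK cells all 4 UMIs came from 1 cell, and mature dendritic and erythroid barcodes held none.

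Pdgfa was common among single Schwann cells. After thinning to 5000 UMIs, 73.8% (62.7 to 83) of them held a Pdgfa UMI, compared with 72.1% (56.3 to 84.7) of vascular smooth muscle cells, 50.3% (45 to 55.5) of tenocytes, 23.4% (17.9 to 29.8) of satellite cells and myoblasts, 7.38% (6.72 to 8.09) of macrophages and 4.09% (3.08 to 5.32) of fibroblasts. The share in conventional dendritic cells of type 1, taken as the background class, was 0.444% (0.0113 to 2.45). Schwann cells had a median depth of 8672 UMIs and these dendritic cells of 17678 UMIs, with shares of 88.8% and 5.33% before thinning. No single Schwann cell set the level, which was 263 CPM without the cell that held most Pdgfa UMIs. Although macrophages had a low level, they were so many that they held 44% (42.1 to 46) of all Pdgfa UMIs in the 14 classes, ahead of tenocytes with 28.1% (26.4 to 29.8) and Schwann cells with 8.67% (7.62 to 9.81).

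Pdgfb, the ligand gene of endothelial signals to pericytes, was highest in endothelial cells at 259 CPM (206 to 323), where 24 of 34 cells held a UMI. Without the endothelial cell that held most Pdgfb UMIs the level was 226 CPM. Endothelial cells were 8.73-fold (4.83 to 17.1) above vascular smooth muscle cells, at 29.7 CPM (15.8 to 50.8), and 13.6-fold (10.7 to 17) above macrophages, at 19.1 CPM (18.1 to 20.1). Taken as whole classes, the myeloid classes had like levels, although macrophage subsets differed, as given further on. Mature dendritic cells had 20.4 CPM (6.63 to 47.6), conventional dendritic cells of type 1 18.6 CPM (14.7 to 23.2) and Cd209a dendritic cells 16.2 CPM (10.7 to 23.5), and the intervals of all of these included the macrophage level. T and NK cells had 3 UMIs and Schwann cells 13.3 CPM (6.64 to 23.8). Stromal cells stood far lower, with 9 UMIs in 1296 fibroblasts, or 0.438 CPM (0.200 to 0.831), and 1 UMI in 366 tenocytes. The macrophage level was 43.5-fold (22.9 to 95.4) above that of fibroblasts, a log2 ratio of 5.44 (4.52 to 6.58) that was 3.70 with barcodes from 2000 UMIs on. Satellite cells and myoblasts held 3 UMIs. Pericytes held 0 UMIs, with an exact upper limit of 62.6 CPM. Endothelial cells were 5.09-fold above the floor of 3 UMIs, a bound that is not a 95% limit. When barcodes of several gates went to their best class, the 20 pericytes held 29 Pdgfb UMIs, or 135 CPM, beside 217 CPM in endothelial cells, and in place of a bound, reported as 2.35 on the log2 scale, there was a counted log2 ratio of 0.69. Muscle fibre and erythroid barcodes held no Pdgfb UMI. Macrophages, by their number, supplied 85.5% (83.6 to 87.2) of Pdgfb UMIs, and endothelial cells 5.05% (4.03 to 6.25).

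Pdgfc was shared by stromal cells and macrophages. Its level was 57.1 CPM (37 to 84.3) in vascular smooth muscle cells, 55.5 CPM (53.8 to 57.3) in macrophages and 38.3 CPM (35.7 to 41.1) in fibroblasts. Vascular smooth muscle cells could not be told from macrophages, at a log2 ratio of 0.04 (-0.59 to 0.60) that was -0.60 without the filter on genes and mitochondrial UMIs, while fibroblasts were below macrophages at a log2 ratio of -0.54 (-0.65 to -0.43). Tenocytes had 24 CPM (19.7 to 29), which was 1.59-fold (1.3 to 1.97) below fibroblasts, and satellite cells and myoblasts had 15.9 CPM (11 to 22.1). Schwann cells held 0 Pdgfc UMIs in 80 cells, where 3 UMIs would be 3.63 CPM. The dendritic classes held 6, 2 and 1 UMIs in the order type 1, Cd209a and mature, endothelial cells and pericytes 1 UMI each, and the remaining 3 classes none. After thinning, 18.8% (17.8 to 19.9) of macrophages and 11.9% (10.2 to 13.8) of fibroblasts held a Pdgfc UMI, compared with 0 of 225 conventional dendritic cells of type 1, where 3 cells would be 1.33%. Before thinning these were 30.9%, 23.4% and 2.22%, and the median depths 11226, 15552 and 17678 UMIs. Macrophages held 80.3% (79.2 to 81.5) of the Pdgfc UMIs of the 14 classes and fibroblasts 16% (15 to 17.1).

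Pdgfd, a ligand for the receptor encoded by Pdgfrb, was found in mesenchymal and vascular classes and hardly in blood cells. Vascular smooth muscle cells had 215 CPM (174 to 263), but 39 of the 94 UMIs came from 1 cell, and the level was 129 CPM without it. Endothelial cells had 185 CPM (139.9 to 239), and 152 CPM without the cell with most UMIs. Fibroblasts had 97.6 CPM (93.3 to 102), tenocytes 87.2 CPM (78.7 to 96.4) and pericytes 84.8 CPM (27.5 to 198), the last from 5 UMIs in 2 cells. The log2 ratio of vascular smooth muscle to endothelial cells was 0.22 (-0.27 to 0.72), and its sign changed with the gating and the depth. Endothelial and vascular smooth muscle levels of Pdgfd are therefore given without an order. Endothelial cells were 1.89-fold (1.43 to 2.46) above fibroblasts, a log2 ratio of 0.92 (0.51 to 1.30) that was 1.82 with barcodes from 2000 UMIs on and 0.36 with barcodes from 10000 UMIs on. Fibroblasts exceeded macrophages, at 0.535 CPM (0.379 to 0.735), by 182-fold (132 to 258). As a log2 ratio this was 7.51 (7.05 to 8.01), and 5.25 with barcodes from 2000 UMIs on. Schwann cells had 7.26 CPM (2.66 to 15.8) from 6 UMIs. Satellite cells and myoblasts and each dendritic class held at most 3 UMIs, erythroid barcodes 1, and muscle fibre and T and NK barcodes none. In thinned cells a Pdgfd UMI was found in 50% (32.4 to 67.6) of endothelial cells, 22.8% (20.5 to 25.1) of fibroblasts and 0.210% (0.108 to 0.366) of macrophages, compared with 52.9%, 39.2% and 0.420% before thinning. The median depth of the endothelial cells, 6666 UMIs, was the lowest of these classes. Fibroblasts held 77.2% (75.5 to 78.8) of Pdgfd UMIs and tenocytes 14.8% (13.5 to 16.2).

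**Figure D2:**
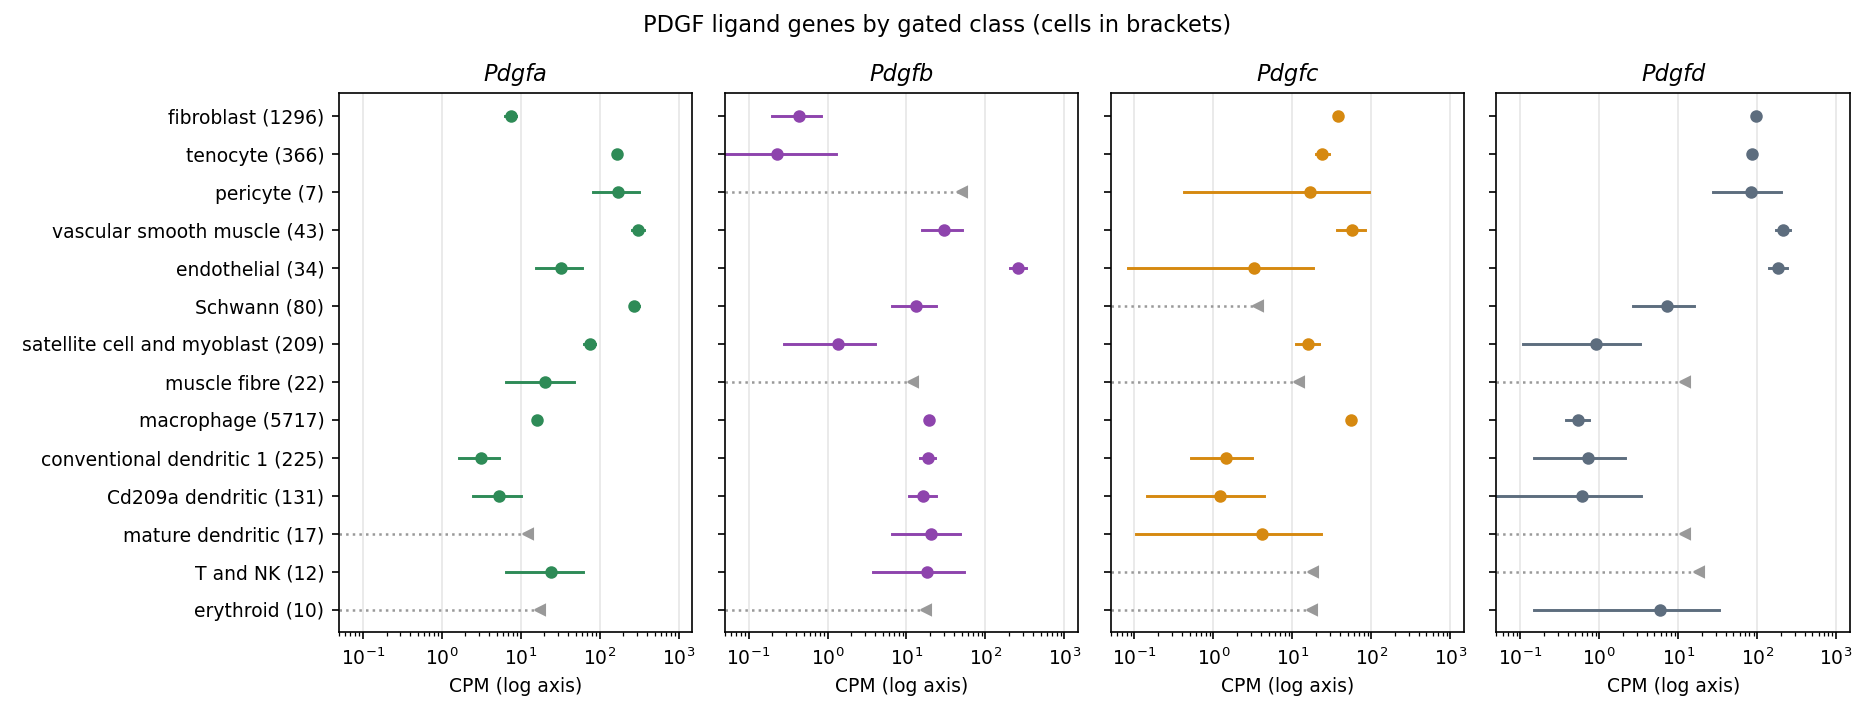
Levels of the 4 ligand genes in the 14 gated classes, in CPM on a log axis, with exact Poisson 95% intervals as lines and a grey arrowhead at the level of 3 UMIs for a class with 0 UMIs. Pdgfa is highest in vascular smooth muscle and Schwann cells, Pdgfb in endothelial cells at 259 CPM, Pdgfc is level between vascular smooth muscle cells and macrophages, and Pdgfd is high in stromal and vascular classes and at 0.535 CPM in macrophages.

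Each class thus held its own mixture of ligand RNAs. Among ligand UMIs, Schwann cells had 93.1% (89.1 to 95.9) Pdgfa and satellite cells and myoblasts 80.5% (74.4 to 85.7). In fibroblasts 67.8% (66.1 to 69.5) were Pdgfd and 26.6% (25 to 28.3) Pdgfc, so the latent, CUB-domain ligands together made up most of the fibroblast ligand UMIs. Tenocytes held 60% (57.2 to 62.8) Pdgfa and 31.3% (28.7 to 34) Pdgfd. Macrophages held 60.7% (59.5 to 61.9) Pdgfc, and conventional dendritic cells of type 1 78% (68.6 to 85.7) Pdgfb. Endothelial ligand UMIs were divided between Pdgfb, with 54.1% (45.7 to 62.3), and Pdgfd, with 38.5% (30.6 to 46.9). Capture can differ between genes, so these shares compare classes and not absolute amounts of the ligands. Pdgfc and Pdgfd have the longest spans of the set, and an effect of gene length on capture was not tested.

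**Figure D3:**
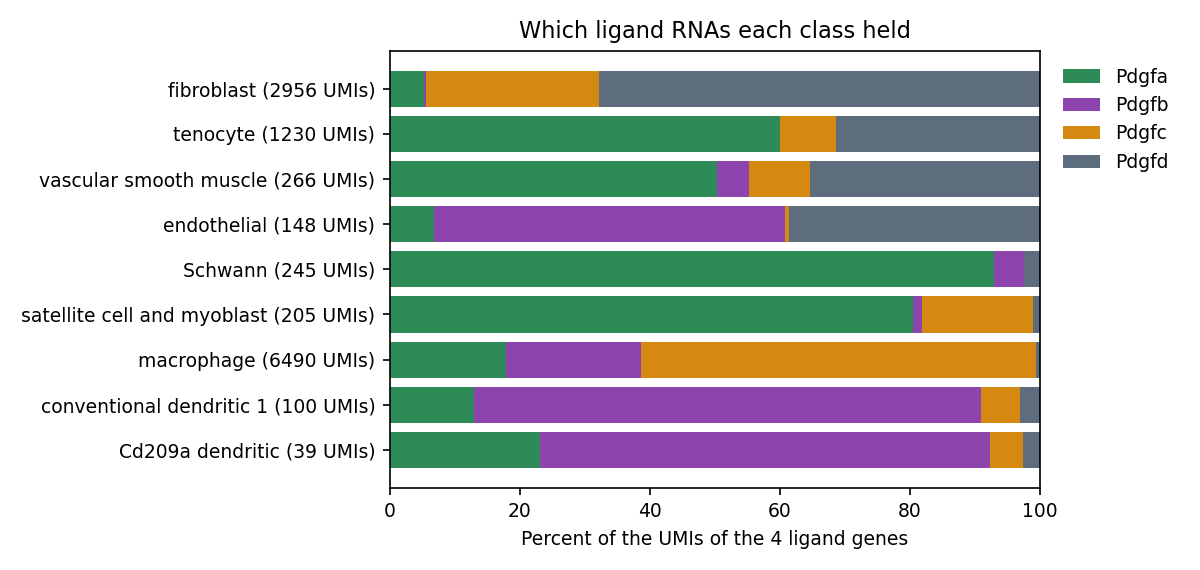
Percent of the UMIs of Pdgfa, Pdgfb, Pdgfc and Pdgfd that each ligand gene took in the classes with at least 30 such UMIs (number of UMIs in brackets). Schwann cells and satellite cells and myoblasts are mostly Pdgfa, fibroblasts mostly Pdgfd, macrophages mostly Pdgfc, and the dendritic classes mostly Pdgfb.

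Fibroblasts differed among themselves. They were divided by lists of markers into Pi16 Dpp4 cells (285), Dkk2 Bmper Lsamp cells (301), Gdf10 Inmt cells (197), Smoc2 Cxcl14 Hsd11b1 cells (169), Apod Tenm2 Col28a1 cells (53) and 291 others. The latent ligands were highest in Pi16 Dpp4 cells, named for markers known from adventitial fibroblasts. Pdgfc was at 95.5 CPM (87.3 to 104) there, 29.5 CPM (24.9 to 34.8) in Dkk2 cells, 6.46 CPM (3.69 to 10.5) in Gdf10 cells and 3.06 CPM (1.32 to 6.03) in Smoc2 cells, with 0 UMIs in the Apod cells. The ratio of Pi16 to Smoc2 cells was 31.2-fold (15.7 to 72.6). Pdgfd showed a like order, with 195 CPM (183 to 207) in Pi16 cells, 72.7 CPM (62.5 to 84.1) in Gdf10 cells and 65.5 CPM (58.4 to 73.1) in Dkk2 cells, whose intervals overlapped, and 9.19 CPM (5.89 to 13.7) and 8.15 CPM (3.28 to 16.8) in Smoc2 and Apod cells. Its Pi16 to Smoc2 ratio was 21.2-fold (14.2 to 33.3). On the log2 scale these ratios were 4.96 (3.97 to 6.18) for Pdgfc and 4.41 (3.82 to 5.06) for Pdgfd, and 6.75 and 5.83 when a subset was asked for the full 90th percentile of its marker sum in place of 0.5 of it. Pdgfa, low in all of them, was at 2.11 CPM in Pi16 cells, 10.9 CPM in Gdf10 cells and 17.1 CPM (13.5 to 21.3) in the unnamed rest, and Pdgfb had at most 3 UMIs in any subset. In thinned cells, 47.4% (41.5 to 53.3) of Pi16 cells held a Pdgfd UMI, against 1.18% (0.144 to 4.21) of Smoc2 cells, or 73.7% and 8.28% before thinning from median depths of 18382 and 16127 UMIs.

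Both receptor RNAs were lowest in the Pi16 cells. Pdgfra was at 634 CPM (603 to 665) in Smoc2 cells, 589 CPM (567 to 611) in Dkk2 cells, 532 CPM (484 to 583) in Apod cells and 518 CPM (489.7 to 547) in Gdf10 cells, and in Pi16 cells at 323 CPM (308 to 339), a ratio of Smoc2 to Pi16 cells of 1.96-fold (1.83 to 2.1). Pdgfrb was at 89.6 CPM (70.7 to 112) in Apod cells and 89.2 CPM (78.1 to 101) in Smoc2 cells, 67.4 CPM (57.6 to 78.5) in Gdf10 cells, 52.8 CPM (46.5 to 59.7) in Dkk2 cells and 25.8 CPM (21.7 to 30.6) in Pi16 cells, and its ratio of Smoc2 to Pi16 cells was 3.45-fold (2.78 to 4.3). Pdgfra nevertheless dominated the receptor UMIs of every fibroblast subset, from 85.6% (82.3 to 88.5) in Apod cells to 92.6% (91.3 to 93.8) in Pi16 cells. Over all fibroblasts, Pdgfc and Pdgfd RNA also tended to share cells. Both were highest in Pi16 cells, and whether they shared cells within a subset was not tested. After thinning, a Pdgfd UMI occurred in 38.3% (30.6 to 46.5) of fibroblasts with a Pdgfc UMI and in 20.7% (18.4 to 23.1) of those without, and unthinned in 62.7% (57 to 68.2) and 32% (29.1 to 35). These intervals treat cells of 1 library as independent. A single fibroblast, outside the named subsets, held 149 Pdgfd UMIs, and without it the fibroblast level was 90.4 CPM.

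**Figure D4:**
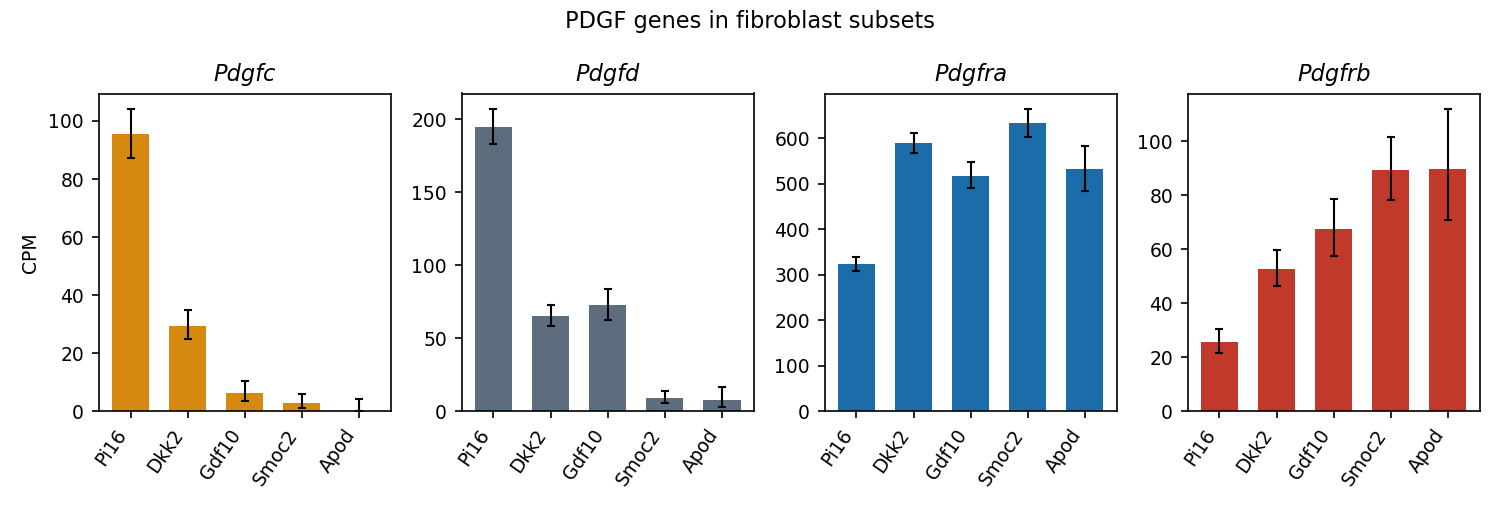
Levels of Pdgfc, Pdgfd, Pdgfra and Pdgfrb in 5 fibroblast subsets, named by their leading marker, as bars in CPM with exact Poisson 95% intervals. Pdgfc and Pdgfd are highest in the Pi16 subset, at 95.5 and 195 CPM, where Pdgfra and Pdgfrb are lowest, at 323 and 25.8 CPM.

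Macrophages were divided in the same manner into Lyve1 Folr2 cells (1981), named for markers known from resident macrophages, cells high in MHC class II and C1q genes (1543), Gpnmb Fabp5 cells (740), Ly6c2 Chil3 cells (549), named for monocyte genes, and 904 others. Pdgfc was highest in Lyve1 cells, at 105 CPM (101 to 109), which was 2.73-fold (2.52 to 2.96) the level of fibroblasts. The unnamed rest had 54.1 CPM (49.8 to 58.75) Pdgfc. In the other named subsets Pdgfc was at 25.6 CPM (23.2 to 28.1) in MHC class II cells, 23.5 CPM (20.9 to 26.4) in Gpnmb cells and 4.92 CPM (3.34 to 6.98) in Ly6c2 cells. The Lyve1 cells exceeded these by 4.09-fold (3.7 to 4.54), 4.45-fold (3.94 to 5.04) and 21.3-fold (15 to 31.4) in this order, and the intervals of the MHC class II and Gpnmb levels overlapped. The log2 ratio of Lyve1 to Ly6c2 cells, 4.41 (3.90 to 4.97), was 5.33 with the stricter subsets and 3.37 with barcodes from 2000 UMIs on. The log2 ratio of Lyve1 to Gpnmb cells, 2.15 (1.98 to 2.33), was 2.74 with barcodes from 10000 UMIs on and 2.78 with the stricter subsets, and that of Lyve1 to MHC class II cells, 2.03 (1.89 to 2.18), was 2.65 with the latter and 1.67 with barcodes from 10000 UMIs on. Among thinned cells, 33.3% (31.2 to 35.4) of Lyve1 cells and 1.64% (0.752 to 3.09) of Ly6c2 cells held a Pdgfc UMI, or 54.7% and 3.46% before thinning from median depths of 11956 and 10937 UMIs.

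Pdgfb had another order among macrophages. MHC class II cells had 29 CPM (26.4 to 31.6), the unnamed rest 23.6 CPM (20.8 to 26.7), Lyve1 cells 16.8 CPM (15.2 to 18.4), Gpnmb cells 13.2 CPM (11.2 to 15.4) and Ly6c2 cells 5.4 CPM (3.74 to 7.54). The MHC class II cells were 1.73-fold (1.51 to 1.97) above Lyve1 cells and 5.37-fold (3.79 to 7.84) above Ly6c2 cells. Pdgfa was at 24.6 CPM (21.7 to 27.7) in the unnamed rest, 18.8 CPM (16.8 to 21) in MHC class II cells, 16.1 CPM (14 to 18.6) in Gpnmb cells and 14.6 CPM (13.1 to 16.1) in Lyve1 cells, and was again lowest in Ly6c2 cells at 3.17 CPM (1.94 to 4.9), 5.91-fold (3.76 to 9.81) below MHC class II cells. The log2 ratio of MHC class II to Ly6c2 cells for Pdgfa, 2.56 (1.91 to 3.29), was 1.97 with barcodes from 2000 UMIs on. The Ly6c2 cells thus had the lowest level of all 3 ligand RNAs that macrophages carried. Within single thinned macrophages, a Pdgfc UMI was found in 18.9% (15.6 to 22.6) of cells with a Pdgfb UMI and in 18.8% (17.8 to 19.9) of cells without one. Unthinned, where depth differs between cells, the shares were 35.4% (32.3 to 38.5) and 30.1% (28.8 to 31.4), with intervals apart.

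**Figure D5:**
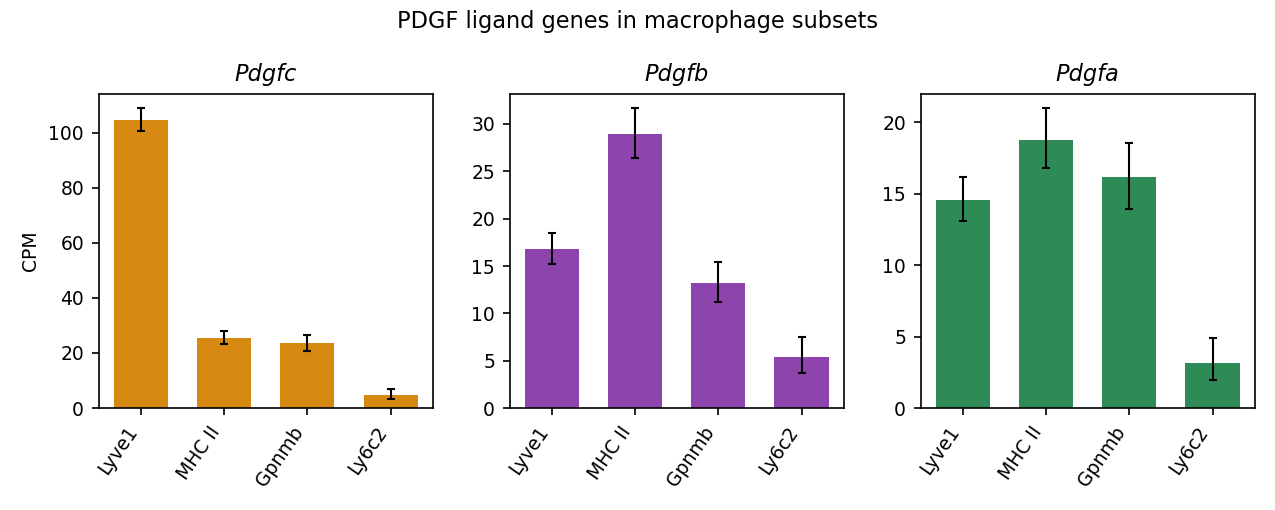
Levels of Pdgfc, Pdgfb and Pdgfa in 4 macrophage subsets, named by their leading marker, as bars in CPM with exact Poisson 95% intervals. Pdgfc is highest in Lyve1 cells at 105 CPM, Pdgfb in MHC class II cells at 29 CPM, and Ly6c2 cells are lowest for all 3 genes.

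A gene was called in a class when its CPM was at least 4-fold above or below the mean of the other 13 classes, each with equal weight, among genes with at least 5 CPM on either side. Vascular smooth muscle cells called 3 of the 6 members higher, Pdgfa, Pdgfc and Pdgfd, where 6.88% of 11878 genes were called higher. Without the cell of the class that held most UMIs of the gene, Pdgfd was at 129 CPM, 3.57-fold the mean of the other classes, and Pdgfc at 47 CPM, 3.81-fold, so that neither call held. Endothelial cells called Pdgfb and Pdgfd higher (background 9.11%), of which Pdgfd was at 3.94-fold without its top cell and lost its call. The other 6 of the 9 higher calls passed the threshold without the top cell. The remaining classes with such calls were Schwann cells for Pdgfa (9.20%), fibroblasts for Pdgfra (6.34%), pericytes for Pdgfrb (12.9%) and macrophages for Pdgfc (6.05%). The Schwann cell call of Pdgfa, at 4.34-fold, was close to the threshold. Its lower limit of 241 CPM lay less than 4-fold above the mean of the other classes, 63.6 CPM. No member was called higher in tenocytes (5.92%), satellite cells and myoblasts (3.11%), muscle fibre barcodes (7.67%), type 1, Cd209a and mature dendritic cells (3.76%, 3.11% and 5.62%), T and NK cells (10.6%) or erythroid cells (0.579%). In the lower direction, fibroblasts called Pdgfa and Pdgfb (background 11.5%), tenocytes Pdgfb (13.4%), and Schwann cells Pdgfc, Pdgfd, Pdgfra and Pdgfrb (13.1%). Macrophages called 4 members lower, all but Pdgfb and Pdgfc (17.0%), and type 1, Cd209a and mature dendritic cells 5 each, all but Pdgfb (22.8%, 21.5% and 34.4%). Endothelial cells called Pdgfc, Pdgfra and Pdgfrb lower (17.0%), vascular smooth muscle cells Pdgfra (18.2%), pericytes Pdgfb and Pdgfra (30.0%), satellite cells and myoblasts all but Pdgfa and Pdgfc (17.4%), and T and NK cells all but Pdgfa and Pdgfb (27.9%). Muscle fibre and erythroid barcodes called all 6 lower, but so they did with 52.5% and 95.7% of genes. Many of these lower calls rest on classes of few cells. Of the 52 lower calls, 25 also had the upper limit of the exact interval at least 4-fold below the mean of the other classes, and 27 did not. The 25 were both calls of fibroblasts, the call of tenocytes, all calls of satellite cells and myoblasts, macrophages and type 1 dendritic cells, those of Cd209a dendritic cells other than Pdgfc, Pdgfrb in Schwann, endothelial, muscle fibre and mature dendritic cells, and Pdgfa in mature dendritic cells. For 17 of the 27, even the floor of 3 UMIs lay less than 4-fold below that mean, so a lower level could not be shown at this depth. These were both genes in pericytes, all 4 in T and NK cells, Pdgfc in endothelial cells, Pdgfc and Pdgfra in mature dendritic cells, Pdgfb, Pdgfc and Pdgfra in muscle fibre barcodes and all but Pdgfa in erythroid barcodes. In pericytes the floor of 50.9 CPM stood above the mean of the other classes, 30.5 CPM for Pdgfb and 40.6 CPM for Pdgfra, and with the best-class gating Pdgfb was at 135 CPM there, as given above.

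Genes that act on or beside the PDGF system were read from lists chosen by function. Of the 7 proteases that process PDGF proforms, 6 were high enough to be tested in fibroblasts and 4 were called higher there, as were 6.34% of all genes tested, with a median log2 difference of 2.37 over the 7, compared with -0.07 over all genes tested. Among these 4, Pcsk5 was also called higher in tenocytes (background 5.92%) and Plau in macrophages (6.05%). Pcsk5 and Pcsk6, which encode proprotein convertases, were at 409.9 CPM (401 to 419) and 178 CPM (173 to 184) in fibroblasts and at 268 and 50.1 CPM in tenocytes. Plau, which encodes urokinase, an activator of PDGF-D, was at 131 CPM (126 to 136) in fibroblasts and 98 CPM (95.7 to 100.3) in macrophages. Plat, which encodes tissue plasminogen activator, the activator of PDGF-C, was at 190.5 CPM (185 to 197) in fibroblasts, 139 CPM (115 to 167) in Schwann cells and 2.2 CPM (1.87 to 2.57) in macrophages. Plat and Furin lay outside the naming rule and were chosen after their values were seen. Among fibroblasts, Pi16 cells had the highest level of Pcsk6, at 496 CPM (477 to 516), and of Plat, at 319 CPM (304 to 334). Plau instead was at 131 CPM (121 to 141) in Pi16 cells, below 242 CPM (223 to 261) in Smoc2 and 221 CPM (191 to 255) in Apod cells, and Furin was at 34.6 CPM (29.8 to 40.1) in Pi16 and 52.8 CPM (44.4 to 62.4) in Smoc2 cells. St14, which encodes matriptase, another activator of PDGF-D, was low throughout and highest in Schwann cells at 8.47 CPM (3.41 to 17.5), where it was called higher, as were 9.20% of genes. St14 was also called higher in T and NK cells (10.6%), there from 1 UMI. Furin, which encodes the founding convertase, was highest in macrophages at 152 CPM.

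Of the 3 co-receptors and binding proteins, fibroblasts called Lrp1 higher, tenocytes Lrp1 and Sparc, and endothelial cells Nrp1, with median log2 differences over the list of 1.77, 2.29 and 0.13, compared with -0.07, -0.10 and 0.07 over all genes tested. Of all genes tested, 6.34%, 5.92% and 9.11% were called higher in these classes. Lrp1, a large endocytic receptor that forms complexes with the receptor encoded by Pdgfrb, was at 692 CPM (680.4 to 703) in fibroblasts and 525 CPM (504 to 547) in tenocytes. Sparc, a matrix protein that binds PDGF-B, was at 12242 CPM (12139 to 12345) in tenocytes, and Nrp1, a co-receptor, at 454 CPM (382 to 535) in endothelial cells. The 3 close relatives of the PDGF receptors, by contrast, were highest in myeloid classes. Csf1r was at 623 CPM (618 to 629) in macrophages, Flt3 at 212 CPM (159 to 278) in mature and 154 CPM (143 to 167) in type 1 dendritic cells, and Kit at 95.3 CPM (86.1 to 105) in type 1 dendritic cells and, from 7 UMIs, at 22.7 CPM (9.12 to 46.7) in endothelial cells. Fibroblasts, tenocytes and Schwann cells called all 3 of these genes lower, as they did 11.5%, 13.4% and 13.1% of all genes tested. In Schwann cells the calls of Kit and Flt3 rest on 0 UMIs each, or 0 CPM (0 to 4.46).

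Genes that act downstream of the receptors were read in the same way. Of 11 adaptors and effectors, fibroblasts, tenocytes and vascular smooth muscle cells called none higher, pericytes called Src, endothelial cells Plcg1 and Nck1 and mature dendritic cells Pik3r1. Among all genes tested, 6.34%, 5.92% and 6.88% were called higher in the first 3 classes, 12.9% in pericytes, 9.11% in endothelial and 5.62% in mature dendritic cells. The list's median log2 difference was -0.85 in pericytes and 0.74 in endothelial cells, beside 0.03 and 0.07 over all genes tested. Src, a cytoplasmic kinase, was at 50.9 CPM (10.5 to 149) in pericytes, from 3 UMIs, and Plcg1, a phospholipase, at 35.6 CPM in endothelial cells. Nck1, an adaptor, was at 262 CPM (208 to 326) in endothelial cells, and Pik3r1, the regulatory subunit of phosphoinositide 3-kinase, peaked in mature dendritic cells at 1179.8 CPM (1048 to 1324). Of 9 feedback and negative regulators, pericytes and vascular smooth muscle cells called Spry4, a Sprouty inhibitor of receptor signals, at 67.9 CPM (18.5 to 174) and 48 CPM (29.7 to 73.3), the former from 4 UMIs. The background was 12.9% in pericytes and 6.88% in vascular smooth muscle. Spry1 was called in satellite cells and myoblasts (background 3.11%) at 175 CPM (158 to 194), Spry2 in T and NK cells (10.6%) at 394 CPM (304 to 502), and Dusp6, a phosphatase of ERK, in endothelial cells (9.11%) at 146 CPM (106 to 195). Of 6 early response genes, Myc alone was called higher, in fibroblasts (6.34%) at 240.4 CPM (234 to 247) and in satellite cells and myoblasts (3.11%) at 268 CPM (247 to 290.2). Fos was highest in pericytes, at 4767 CPM (4226 to 5358). Egr1 was at 2154 CPM (1796 to 2563) in pericytes and could not be told from fibroblasts, at 2147 CPM (2127 to 2167). Ier2 was at 658 CPM (584 to 738) in vascular smooth muscle cells and 525 CPM (447 to 612) in endothelial cells, with overlapping intervals. None of these passed the 4-fold threshold.

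The genes whose pattern was most like that of a member were sought across 14 groups, the 5 undivided classes, 5 fibroblast subsets and 4 macrophage subsets with at least 50 cells, among 9623 genes with at least 20 CPM in 1 of them, by Pearson's r of log2(CPM + 1). The points share 1 library and some share a parent class, so r is a description. Pericytes and vascular smooth muscle cells, with Pdgfrb but little or no Pdgfra, and endothelial cells, with the highest Pdgfb, were too few to be among these groups. Pdgfra ran closest to Mmp3 (0.99), Tbx18 (0.98) and Slit3 (0.98), and Pdgfrb to Angptl1 (0.99), Pcolce (0.99) and C1qtnf2 (0.99). Pdgfd ran closest to Pcolce2 (0.98), Ablim1 (0.96) and the convertase gene Pcsk6 (0.95). For Pdgfb these were Gatm (0.96), Trim36 (0.96) and Shtn1 (0.95), for Pdgfa Cpm (0.93) and Cav2 (0.89), and for Pdgfc, with the least similar neighbours, Wsb1 (0.85), Bmp2 (0.79) and Katna1 (0.78). Between members, the receptor genes had r = 0.91 with each other, Pdgfd had 0.84 with Pdgfrb and 0.80 with Pdgfra, and Pdgfb had -0.86 with Pdgfrb and -0.81 with Pdgfra, while Pdgfa ran from -0.36 with Pdgfra to 0.09 with Pdgfb and Pdgfc from -0.20 with Pdgfb to 0.20 with Pdgfd.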

How the data were processed

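The GFP+ cells were profiled with 3′ droplet sequencing, and the authors deposited the Cell Ranger matrix of UMI counts per gene and barcode, which was used as deposited and not normalized further by them. The file header gives Cell Ranger 8.0.1, the submitters' processing notes give Cell Ranger 7.1.0 and Seurat 4.30 and the build mm10, and the methods name GRCm38 and GRCm39, so the build of the counts is not certain. The GFP- library's counts were not analysed here, and its barcodes served only to count shared ones.

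Barcodes were kept at 5000 or more UMIs, more than 200 genes and under 10% mitochondrial UMIs. A class asked for at least 3 detected markers of its list and a minimum number of marker UMIs per 10000, set after the marker counts were seen, from 3 for Schwann cells to 1000 for erythroid cells. Barcodes that passed gates of several lineages (340) were left out in place of calling doublets, 175 passed no gate, and 17 fell in classes under 10 cells. Gates of the same lineage were fibroblast with tenocyte, pericyte with vascular smooth muscle, and macrophage with dendritic. So were satellite cell with muscle fibre and endothelial with lymphatic endothelial. Barcodes passing several gates of the same lineage went to the gate they exceeded most. Pericytes were kept in spite of their 7 cells. Ccl21a was dropped from the lymphatic markers because its symbol names more than 1 feature. Subsets asked for at least 2 markers and 0.5 of the 90th percentile of their marker sum. The study's removal of ambient RNA and of doublets was not applied.

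Counts per 1000000 (CPM) were computed from summed UMIs, with exact Poisson intervals. Ratios have exact conditional intervals, and shares exact Clopper-Pearson intervals. Shares of cells were compared after thinning every cell to 5000 UMIs. Calls asked for a 4-fold difference and 5 CPM, and likeness and the lists' log2 differences used a pseudocount of 1 CPM. Named genes were all 6 members, up to 4 genes of each list with the largest ratio of the highest to the median class, and the 3 genes most like each member. A single one of these genes is not reported here. The members and lists were chosen with earlier results of these data known. The interval code was tested on simulated data. Alternatives covered depth, gates, filters, scaling, the 5% deepest barcodes and single cells. Promoters and motifs were read from RefSeq tables. The software was scipy 1.17.1 and numpy 2.4.6 under Python 3.11.15, with pandas 2.3.3 for tables and matplotlib 3.10.9 for figures.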

Additional observations from a re-analysis of the deposited data

How the results depend on the processing

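The 11 comparisons fixed in the design were recomputed under 10 other settings, giving 108 values, of which 80 stayed within the counting interval of the reported value, 28 moved outside it, or shifted a bound, and 0 turned direction. Values are log2 ratios, and those of Pdgfra and Pdgfb against pericytes are bounds at a floor of 3 UMIs wherever the pericytes held none of the gene. For Pdgfra in fibroblasts over pericytes (reported 3.24) the bound was 1.80 at a minimum of 10000 UMIs, 4.61 at 2000 UMIs, there as a ratio to 2 counted UMIs with an interval of 2.75 to 7.65, 3.72 with doubled marker minima, 5.08 when barcodes of several gates went to their best class, 3.46 without the filter, 3.28 without mitochondrial and ribosomal protein genes, 2.97 without the 5% deepest barcodes and 3.06 without the top cell of each class. For Pdgfb in endothelial cells over pericytes (2.35) it was 0.57 at 10000 UMIs, 3.24 at 2000 UMIs, 2.84 with doubled minima, 0.69 with the best class, there as a ratio to 29 counted UMIs, and 1.98 without the top cell. At 2000 UMIs, Pdgfra in fibroblasts over tenocytes was 3.76, Pdgfa in Schwann cells over fibroblasts 4.89, Pdgfd in fibroblasts over macrophages 5.25 and Pdgfb in macrophages over fibroblasts 3.70. With the best class, Pdgfrb in pericytes over fibroblasts was 2.75 (2.89 at 10000 UMIs), and the Pdgfa, Pdgfd and Pdgfb ratios just named were 4.83, 5.96 and 4.46. With doubled minima, Pdgfra in fibroblasts over tenocytes was 4.34, Pdgfd in fibroblasts over macrophages 6.61 and Pdgfa in macrophages over fibroblasts 1.46. Without the 5% deepest barcodes, Pdgfra in fibroblasts over tenocytes was 4.43 and Pdgfc in fibroblasts over macrophages -0.73, and the latter was -0.72 as a mean of single cells. Where all pericytes held 0 UMIs, the one left out as top cell was arbitrary. As a mean of single cells the bounds against pericytes could not be computed. The cause of these moves was not tested.

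Of 323 values of 31 further comparisons, 280 stayed within the interval, 43 moved and 0 turned a direction whose interval left out 0. Of the 323 values, 34, in 14 of the comparisons, lay more than 0.58 from the reported value. Pdgfd in vascular smooth muscle over endothelial cells, not distinguishable as reported, ran from -0.80 at 2000 UMIs to 1.16 at 10000 UMIs. The ratios of Pdgfc and Pdgfd in Pi16 over Smoc2 fibroblasts were 6.75 and 5.83 with subsets at the full 90th percentile. Without the top cell of the class, 3 of the 9 calls of a member as higher in a class were lost, those of Pdgfd and Pdgfc in vascular smooth muscle and of Pdgfd in endothelial cells. The settings without barcodes that the GFP- library also holds, without top cells and with stricter subsets were chosen after seeing the data. No paired analysis was possible because there is 1 library. The 7 pericytes, 34 endothelial cells and 43 vascular smooth muscle cells limit what can be resolved, and differences between animals, sorts or libraries were not measured.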

Other observations

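Among the barcodes left out because they passed gates of several lineages, 16 passed both the pericyte and the endothelial gate. They held Pdgfrb at 231 CPM (173 to 302), Pdgfb at 266 CPM (203 to 341), Pdgfd at 279 CPM (215 to 356) and 0 Pdgfra UMIs. The endothelial cells of the report held 0 Pdgfrb UMIs and its pericytes 0 Pdgfb UMIs, so these barcodes carried together the RNAs that the gated classes carried apart. Whether they are doublets, cells still attached to each other or single cells was not tested.

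Cells with at least 3 of 8 cell cycle genes numbered 11 of 1296 fibroblasts, 124 of 5717 macrophages and 51 of 225 conventional dendritic cells of type 1. The share was thus largest in these dendritic cells, where the intervals of cycling and other cells overlapped for every member. Pdgfra was at 327 CPM (259.8 to 406) in cycling fibroblasts and 482 CPM (472 to 491) in the rest, with intervals that did not overlap. Pdgfb, a gene of endothelial and myeloid classes, was at 12 CPM (2.46 to 34.9) from 3 UMIs and 0.296 CPM (0.108 to 0.643), also with intervals apart, and the part of RNA from other cells in these 11 barcodes was not tested. Pdgfrb was at 83.7 CPM (51.8 to 128) and 55.7 CPM (52.5 to 59), and Pdgfc in macrophages at 47.4 CPM (38.8 to 57.2) and 55.8 CPM (54.1 to 57.6), with overlapping intervals.

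Barcodes under 5000 UMIs that passed the other filters numbered 25740 and held a higher level of the stromal members than the deep barcodes. Pdgfra was at 147 CPM in shallow and 98.1 CPM in deep barcodes, Pdgfrb at 27.8 and 18.4 CPM and Pdgfd at 33.1 and 26 CPM. Pdgfa, Pdgfb and Pdgfc were at 24.8, 13 and 40.8 CPM in shallow barcodes, each below its level of 25.7, 15.2 and 45.1 CPM in deep ones. Cell classes were not assigned to the shallow barcodes.

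Each receptor gene has a close relative as a neighbour in the genome. Kit lies 376699 bases from Pdgfra and Csf1r 11580 bases from Pdgfrb (GRCm39). In these cells the neighbours were highest in other classes than the PDGF receptor genes, with Csf1r at 623 CPM in macrophages and 2 UMIs, or 33.9 CPM (4.11 to 123), in pericytes, and Kit at 95.3 CPM in conventional dendritic cells of type 1 and 0.487 CPM in fibroblasts.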
